A study of Mus musculus with 48 samples.

Results

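The genes described here are those of the unfolded protein response and the chaperones of the endoplasmic reticulum (ER), a set of 35 genes taken by symbol for their known roles. All 35 were measured, by 39 of the 35556 probesets, in a series in which 19938 genes had a probeset that named only them. By role, 13 are ER chaperones and co-chaperones, 4 are protein disulfide isomerases, 6 act in ER-associated degradation, 6 are stress sensors and transcription factors, 4 are outputs of ATF4 and CHOP, and 2 belong to the translocon. Liver RNA came from 48 male mice, with 1 array for each mouse and 8 mice in each of 6 groups. The groups combined 3 Wfs1 genotypes, wild type (WT, Wfs1 +/+), heterozygous (HZ, Wfs1 +/-) and knockout (KO, Wfs1 -/-), with valproic acid (VPA) at 300 mg/kg a day or saline (SAL) at 10 mL/kg, injected intraperitoneally for 12 weeks from an age of 4 to 6 weeks. All groups shared a glucose load of 2 g/kg given 24 hours after the last injection, and the liver was taken 24 hours after that, at 16 to 18 weeks of age.

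Wolframin, the product of Wfs1, is a membrane protein of the ER, and the study asked how its loss and long VPA treatment change gene expression in the liver. When unfolded proteins build up in the ER lumen, BiP (Hspa5) leaves 3 sensors in the ER membrane. ATF6 is cut and moves to the nucleus, where it raises chaperone genes together with the factor NF-Y. IRE1 (Ern1) splices the mRNA of Xbp1, whose product drives genes of folding, translocation and degradation. PERK (Eif2ak3) phosphorylates eIF2, which lowers translation and favours that of Atf4, a factor that turns on genes of amino acid supply and, with CHOP (Ddit3), of later stress. Hepatocytes secrete much of the plasma protein of the body, so they hold an abundant ER and use these genes also without stress. An arm was assigned to each member by its best known regulator, with 12 genes in the ATF6 arm, 11 in the IRE1 arm, 7 in the PERK arm and 5 in none, although many members respond to more than 1 arm. The probeset of Xbp1 sums over both of its splice forms, and phosphorylation, cleavage and splicing are not seen by these arrays.

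Promoter sequences are shown for 4 members that differ in behaviour below. Hspa5 is the chaperone against which the others were compared, Creld2 varied with it most closely, Herpud1 moved against it with VPA, and Asns is the PERK output with the widest range. Each is the stretch of 250 bases before the annotated first transcribed base in RefSeq (GRCm38.p6), written 5′ to 3′ on the strand of the gene. The stretch of Hspa5 lies at chr2:34771840-34772089 on the plus strand, that of Creld2 at chr15:88819396-88819645 on the plus strand, that of Herpud1 at chr8:94386179-94386428 on the plus strand and that of Asns at chr6:7693210-7693459 on the minus strand. Capitals mark matches to 3 motifs named after the sequences, and both strands were searched.
Hspa5: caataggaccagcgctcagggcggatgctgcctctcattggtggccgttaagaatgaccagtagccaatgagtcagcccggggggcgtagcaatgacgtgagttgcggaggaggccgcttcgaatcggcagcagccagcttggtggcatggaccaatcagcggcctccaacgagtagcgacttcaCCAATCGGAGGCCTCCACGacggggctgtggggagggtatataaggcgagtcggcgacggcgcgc
Creld2: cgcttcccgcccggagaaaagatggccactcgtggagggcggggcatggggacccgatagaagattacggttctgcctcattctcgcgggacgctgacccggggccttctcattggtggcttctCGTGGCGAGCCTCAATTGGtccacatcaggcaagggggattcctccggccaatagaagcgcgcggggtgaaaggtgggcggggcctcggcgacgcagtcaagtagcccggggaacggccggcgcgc
Herpud1: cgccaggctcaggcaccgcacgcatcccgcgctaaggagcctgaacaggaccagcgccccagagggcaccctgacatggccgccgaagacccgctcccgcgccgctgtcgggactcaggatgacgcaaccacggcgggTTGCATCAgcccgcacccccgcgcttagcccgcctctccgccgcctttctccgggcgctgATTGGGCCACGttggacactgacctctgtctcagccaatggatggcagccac
Asns: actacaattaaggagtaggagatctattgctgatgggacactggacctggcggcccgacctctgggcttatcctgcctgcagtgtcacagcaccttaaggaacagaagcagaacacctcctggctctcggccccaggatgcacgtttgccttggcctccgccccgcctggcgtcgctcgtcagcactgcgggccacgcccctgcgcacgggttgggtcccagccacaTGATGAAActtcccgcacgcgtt
The capitals of Hspa5 and Creld2 mark the ER stress response element (ERSE), which is CCAAT, 9 bases of any kind and CCACG, whose parts are known to bind NF-Y and ATF6. Those of Herpud1 mark ERSE-II, which is ATTGG, 1 base of any kind and CCACG, nearer to the start and, farther from it, the element TGATGNAA (CARE) that is known to bind ATF4 with C/EBP factors. In Asns they mark a CARE match. The ERSE match of Creld2 and the CARE match of Herpud1 read on the opposite strand, so their capitals show the reverse complement of the motif.

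A RefSeq window of 250 bases before to 50 after the start was at hand for 30 of the 35 members, all but Hyou1, Hspa13, Manf, Derl1 and Atf6. ERSE was found in 8 of the 30 (26.7%) and in 0.137% of 27025 genes with a window. The 8 were Hspa5, Hsp90b1, Calr, Canx, Dnajc3, Creld2, Pdia6 and Derl3, and Hsp90b1 held 2 matches. ERSE-II was found in Herpud1 and Dnajb11 and in 0.0444% of all genes. CARE was found in Herpud1, Trib3, Chac1 and Asns, which is 13.3% of the 30, and in 4.51% of all genes. The element TGACGTGG (UPRE) was found in none of the 30 and in 0.714% of all genes. CCACG, with which ERSE and ERSE-II end, reads on the other strand as the last letters of UPRE, so these motifs share letters, but no stretch of a member matched more than 1 of them. The E-box CACGTG, a site of clock factors among others, was found in Calr, Dnajb9, Derl3 and Ssr1 and in 8.09% of all genes. The members were taken for known roles in the response whose factors bind these elements. Their higher shares of ERSE, ERSE-II and CARE follow in part from that choice. These are matches of letters only, and binding was not measured.

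**Figure D1:**
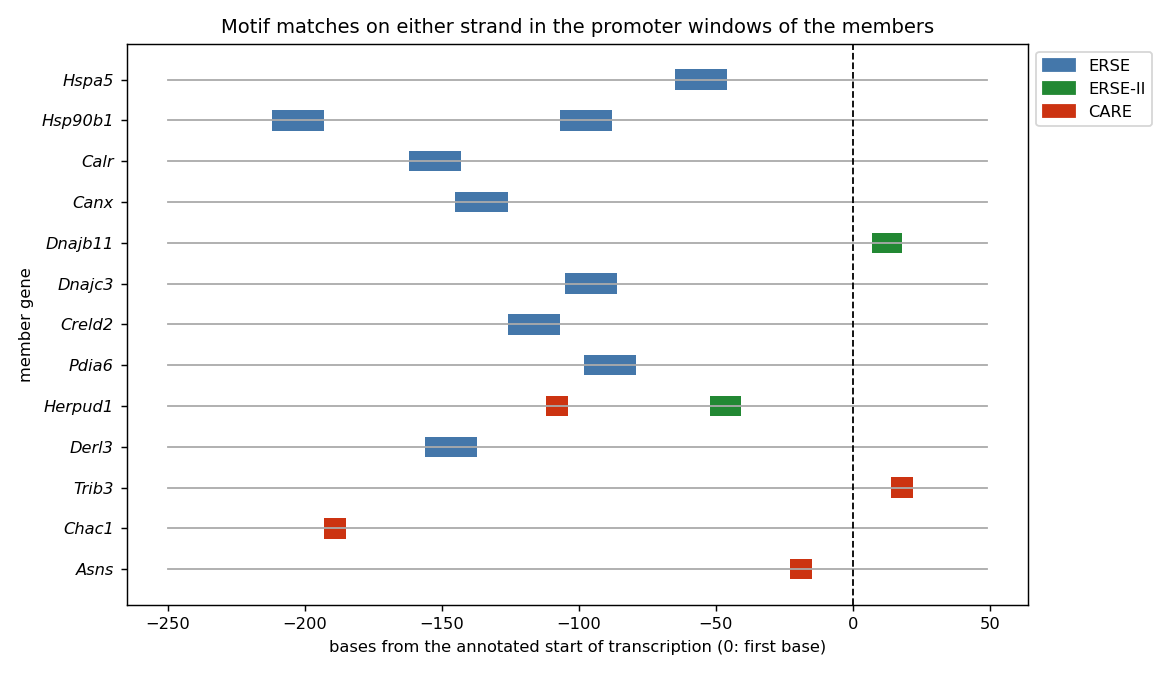
Positions of the matches to ERSE (blue), ERSE-II (green) and CARE (red) in the windows of the 13 members that hold one, in bases from the annotated first transcribed base, which is 0. The 8 genes with ERSE, chaperones as well as Pdia6 and Derl3, hold it upstream of the start, Herpud1 holds both CARE and ERSE-II, and the matches of Dnajb11 and Trib3 lie after the start.

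Values are those of the robust multi-array average (RMA), a log2 scale on which a difference of 1 is a doubling, and they are compared between mice for a given gene and not between genes. Pearson correlations between arrays ran from 0.971 to 0.994, and no arrays were identical. The summed level of 9 hepatocyte markers had group medians between 139130 and 142554 on the unlogged scale, so the tissue was hepatocyte rich in all groups. The probeset of Wfs1 fell short of a call in KO mice, at -0.15 (SE 0.07, adjusted p = 0.320 from limma). The mutant allele has 2 exons of Wfs1 invalidated and the others intact, as the study describes it, so a probeset that sums over all exons is a poor check of the genotype. The study itself reports lower expression of the invalidated exons in KO mice, and by quantitative PCR a dependence of Wfs1 on genotype. A difference was called at an adjusted p under 0.05 from limma over all probesets. In whole liver, fewer cells of a type and less RNA per cell cannot be told apart.

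Loss of Wfs1 went with lower levels of a few folding genes and of asparagine synthetase, and with a rise of no member. Of 35 members 0 rose and 3 fell in KO against WT mice, taken as the mean over saline and VPA, which is 8.57% where 2.94% of all probesets were called (1.37% higher and 1.57% lower). The 3 were Sdf2l1, Pdia4 and Asns. Unadjusted p-values under 0.05 were found for 11 members (beside 13.6% of all probesets), and 26 of the 35 differences were below 0. The median difference was -0.10 over the members and 0.01 over all probesets. By role, 1 of 13 chaperones fell with 12 of 13 differences below 0, 1 of 4 disulfide isomerases fell with 3 below 0, and 1 of 4 outputs of ATF4 and CHOP fell with 2 below 0. None of the genes of degradation, the sensors and factors or the translocon was called. By arm, 2 of 12 members fell in the ATF6 arm (median -0.14), 0 of 11 in the IRE1 arm (median -0.10) and 1 of 7 in the PERK arm (median -0.02), where the median is that of the log2 differences.

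Sdf2l1 encodes a lumenal partner of BiP and its J-domain co-chaperones. In saline mice Sdf2l1 ran from 9.94 to 11.02 (median 10.36) in WT, from 9.56 to 10.60 (median 9.99) in HZ and from 8.86 to 10.42 (median 9.49) in KO. In VPA mice Sdf2l1 ran from 9.70 to 11.30 (median 10.26) in WT, from 9.30 to 10.70 (median 10.48) in HZ and from 8.96 to 10.32 (median 10.04) in KO. Most KO mice given saline lay below the lowest WT mouse given saline, while the ranges overlapped at the top. KO mice differed from WT by -0.64 (SE 0.17, adjusted p = 0.0215) in limma, which is 1.56-fold lower, and 0 of the 16 KO mice exceeded the mean of WT mice on the same treatment. The saline mice alone gave -0.89 (SE 0.24, adjusted p = 0.0563) in limma, which missed the call, and the VPA mice alone gave -0.39 (SE 0.24, adjusted p = 0.766).

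Pdia4 encodes ERp72, a disulfide isomerase of the ER lumen. In saline mice Pdia4 ran from 11.93 to 12.43 (median 12.15) in WT, from 11.80 to 12.46 (median 12.14) in HZ and from 11.50 to 12.11 (median 11.80) in KO. In VPA mice Pdia4 ran from 11.92 to 12.56 (median 12.14) in WT, from 11.85 to 12.53 (median 12.12) in HZ and from 11.69 to 12.36 (median 12.09) in KO. In saline most KO mice lay below the lowest WT mouse, and in VPA the KO and WT ranges overlapped widely. The difference was -0.25 (SE 0.07, adjusted p = 0.0436) by limma, and 14 of the 16 KO mice were under the mean of WT mice on the same treatment. A second probeset of Pdia4 gave -0.33 (SE 0.08, adjusted p = 0.0153), and within saline mice it gave -0.46 (SE 0.12, adjusted p = 0.0434), where the probeset used here gave -0.37 (SE 0.10, adjusted p = 0.0753). The call of Pdia4 was lost in 19 and that of Asns in 21 of the 48 fits that left out 1 mouse.

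Asns encodes asparagine synthetase, a target of ATF4 in both ER stress and amino acid shortage. In saline mice Asns ran from 7.48 to 10.82 (median 9.48) in WT, from 7.14 to 10.50 (median 9.42) in HZ and from 6.82 to 9.45 (median 7.66) in KO. In VPA mice Asns ran from 8.93 to 11.22 (median 9.84) in WT, from 8.93 to 10.90 (median 10.43) in HZ and from 7.15 to 10.66 (median 9.22) in KO. Asns had the widest spread of all members, and every group held both low and high mice apart from WT and HZ mice given VPA, in which no low value was seen. Most KO mice given saline were low, and KO mice given VPA split into a low and a high set. In limma KO mice differed from WT by -1.21 (SE 0.35, adjusted p = 0.0443), which is 2.31-fold lower, and 11 of the 16 KO mice were under the mean of WT mice on the same treatment.

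Several other folding genes came close to a call in KO mice, all of them with lower values. Calr, the lectin chaperone calreticulin, was at -0.14 (SE 0.04, adjusted p = 0.0564), Dnajb11, the BiP co-chaperone ERdj3, at -0.32 (SE 0.10, adjusted p = 0.0584), and Pdia3, the ERp57 that works with calreticulin, at -0.20 (SE 0.06, adjusted p = 0.0737) by limma. Against this direction Herpud1 was at 0.32 (SE 0.10, adjusted p = 0.0762), with 13 of the 16 KO mice over the mean of WT mice on the same treatment. When only 1 probeset was tested for each gene, Calr, Dnajb11, Pdia3 and Herpud1 passed too, so that 1 member rose and 6 fell. Within saline mice 0 of 35 members passed (0.79% of all probesets were called), with 12 at an unadjusted p under 0.05 (beside 9.25% of all probesets), by limma. Within VPA mice 0 passed (0.405% of all probesets), with 3 at an unadjusted p under 0.05 (beside 7.91%). The differences in saline mice were -0.52 for Hyou1, a nucleotide exchange factor of BiP, -0.61 for Creld2, an ER stress protein with disulfide isomerase activity, and -0.43 for Dnajb11, none of them called. The group medians of Creld2 were 10.41 (WT), 9.83 (HZ) and 9.58 (KO) with saline, and 10.13, 10.24 and 10.00 in the same order with VPA, with single mice between 8.95 and 11.70. The group medians of Derl3 were 8.65 (WT), 9.12 (HZ) and 7.65 (KO) with saline, and 7.99, 8.55 and 7.87 in the same order with VPA, with single mice between 7.17 and 10.38. Derl3 encodes a derlin of the degradation pathway, and its difference of -0.43 (SE 0.25, adjusted p = 0.464) was not called.

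**Figure D2:**
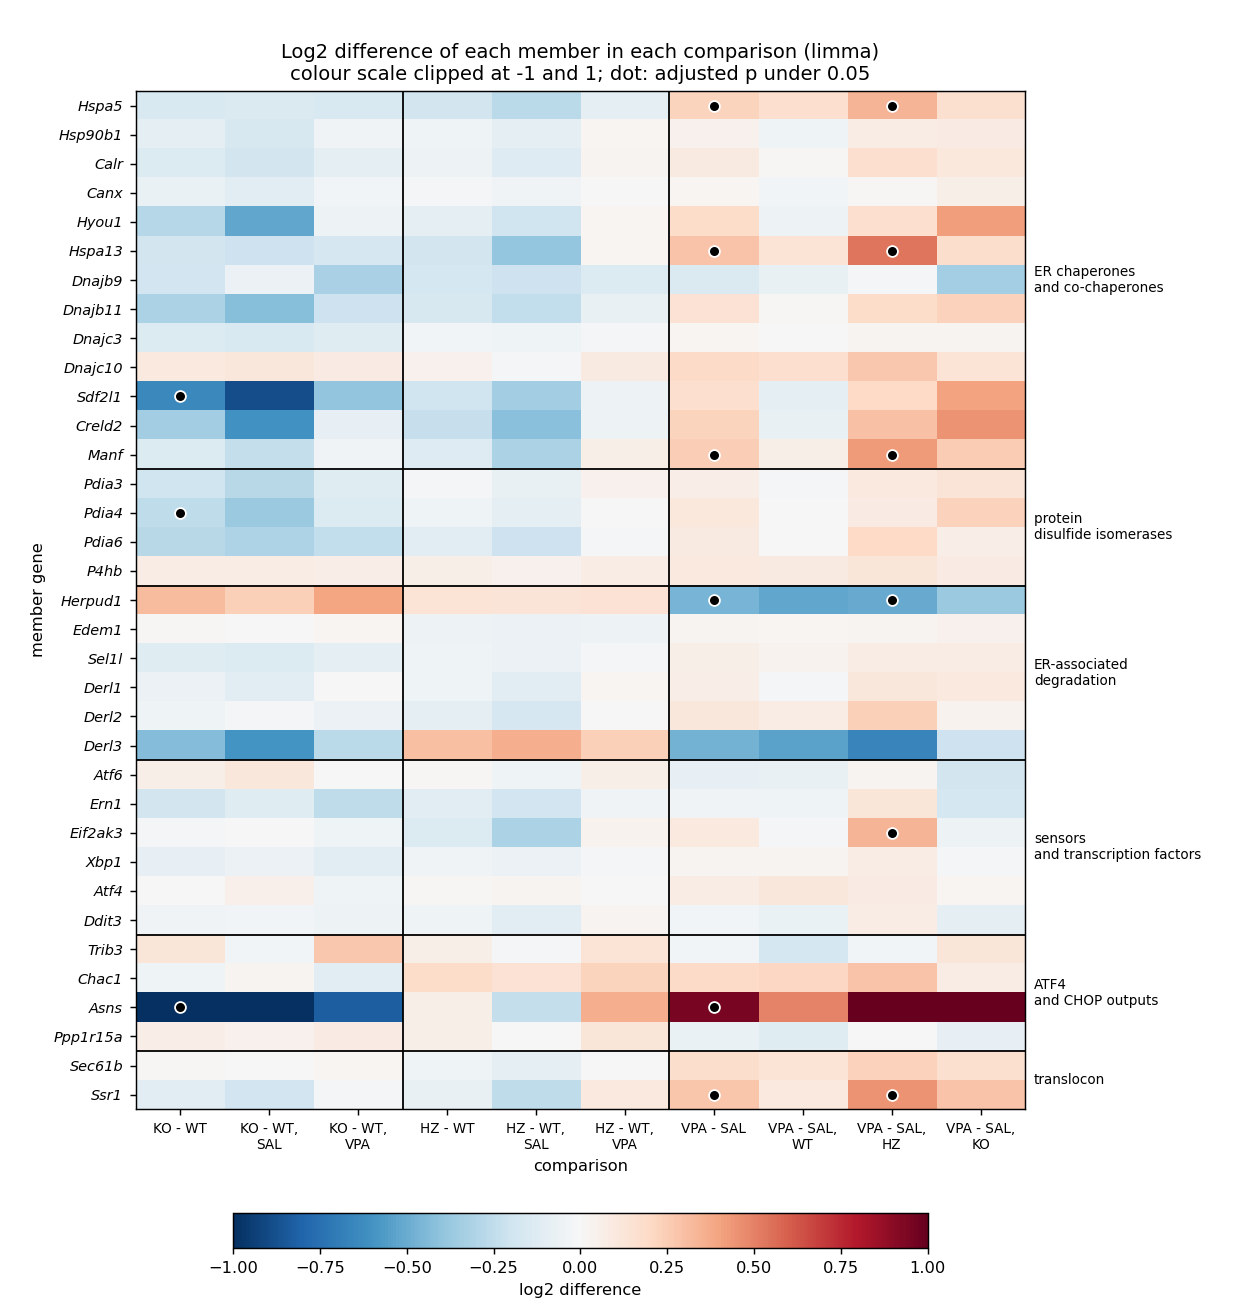
Log2 differences of the 35 members (rows, grouped by role) in 10 comparisons (columns), with the colour scale clipped at -1 and 1 and a dot where limma's adjusted p was under 0.05. The columns of KO against WT are mostly blue for chaperones and isomerases with 3 dots, the columns of HZ against WT hold no dot, and VPA gives 6 dots overall and 6 in HZ mice.

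In HZ mice, which keep 1 copy of Wfs1, 0 of 35 members were called against WT mice by limma, where 0.00281% of all probesets were called. An unadjusted p under 0.05 was found for 2 members (beside 5.4% of all probesets), Hspa5 at -0.18 (SE 0.07, adjusted p = 0.801) and Eif2ak3 at -0.14 (SE 0.06, adjusted p = 0.9). In saline mice alone 0 members were called (0.304% of all probesets), 8 had an unadjusted p under 0.05 (beside 10.7%), and 30 of 35 differences were below 0. The median difference there was -0.10 over the members, against 0.02 over all probesets, and all 13 chaperone genes were lower in HZ mice. The differences were -0.32 (SE 0.09, adjusted p = 0.136) for Eif2ak3, -0.38 (SE 0.14, adjusted p = 0.295) for Hspa13, -0.31 (SE 0.12, adjusted p = 0.312) for Manf, -0.27 (SE 0.11, adjusted p = 0.331) for Hspa5 and -0.25 (SE 0.08, adjusted p = 0.225) for Ssr1 by limma. In VPA mice 0 members were called by limma (0.00281% of all probesets), and 0 had an unadjusted p under 0.05 (beside 2.88%). The group medians of Chac1 were 8.11 (WT), 8.18 (HZ) and 8.03 (KO) with saline, and 8.26, 8.51 and 8.27 in the same order with VPA, with single mice between 7.60 and 8.96. Chac1 encodes an enzyme that degrades glutathione, and it stood at 0.18 (SE 0.11, adjusted p = 0.965) in HZ against WT mice by limma, after Derl3 at 0.30 (SE 0.25, adjusted p = 0.99) the highest estimate among the members.

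With VPA, BiP and other chaperone genes, a translocon subunit and Asns rose, and Herpud1 fell. Of 35 members 5 rose and 1 fell against saline as the mean over genotypes, which is 17.1%, where 8.61% of all probesets were called (4.01% higher and 4.6% lower). The members that rose were Hspa5, Hspa13, Manf, Asns and Ssr1. Unadjusted p-values under 0.05 were found for 13 members (beside 26.1% of all probesets), and 27 of 35 differences were above 0. The median difference was 0.09 over the members and -0.02 over all probesets. By role, 3 of 13 chaperones rose with 12 of 13 differences above 0, 0 of 4 disulfide isomerases were called with 4 above 0, and 1 of 6 genes of degradation fell. None of the 6 sensors and factors was called, 1 of 4 outputs of ATF4 and CHOP rose, and 1 of the 2 translocon genes rose. By arm, 2 rose and 1 fell of 12 in the ATF6 arm, 1 of 11 rose in the IRE1 arm, 1 of 7 in the PERK arm and 1 of the 5 members assigned to none.

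Hspa5 encodes BiP, the main Hsp70 chaperone of the ER and the gate of the stress sensors. In saline mice Hspa5 ran from 12.15 to 12.76 (median 12.50) in WT, from 11.93 to 12.37 (median 12.25) in HZ and from 11.98 to 12.88 (median 12.25) in KO. In VPA mice Hspa5 ran from 12.27 to 13.12 (median 12.67) in WT, from 12.26 to 12.73 (median 12.62) in HZ and from 12.27 to 12.75 (median 12.52) in KO. HZ and KO mice given saline lay low, all groups overlapped, and a KO mouse given saline stood above the others of its group. VPA against saline gave 0.22 (SE 0.06, adjusted p = 0.0164) by limma, with 20 of 24 VPA mice above the saline mean of their genotype.

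Hspa13 encodes another Hsp70 family member of the ER. In saline mice Hspa13 ran from 8.93 to 9.77 (median 9.54) in WT, from 8.81 to 9.36 (median 9.13) in HZ and from 8.68 to 10.03 (median 9.37) in KO. In VPA mice Hspa13 ran from 8.93 to 9.98 (median 9.74) in WT, from 9.27 to 9.92 (median 9.70) in HZ and from 9.18 to 9.80 (median 9.47) in KO. As for Hspa5, HZ mice given saline lay low, and all groups overlapped. VPA against saline gave 0.28 (SE 0.08, adjusted p = 0.0236) by limma, with 19 of 24 mice above.

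Manf encodes a small ER protein that binds BiP and is secreted under stress. In saline mice Manf ran from 8.48 to 9.04 (median 8.86) in WT, from 8.31 to 8.70 (median 8.56) in HZ and from 8.16 to 9.23 (median 8.41) in KO. In VPA mice Manf ran from 8.57 to 9.24 (median 8.85) in WT, from 8.62 to 9.27 (median 8.93) in HZ and from 8.60 to 9.14 (median 8.86) in KO. In saline most HZ and KO mice lay low in the WT range or under it, and with VPA the 3 genotypes lay at like levels. VPA against saline gave 0.25 (SE 0.07, adjusted p = 0.0185) by limma, with 20 of 24 mice above.

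Ssr1 encodes the alpha subunit of the translocon-associated protein complex, which helps nascent chains into the ER. In saline mice Ssr1 ran from 10.98 to 11.47 (median 11.28) in WT, from 10.81 to 11.13 (median 11.04) in HZ and from 10.71 to 11.29 (median 11.10) in KO. In VPA mice Ssr1 ran from 10.98 to 11.61 (median 11.35) in WT, from 11.28 to 11.73 (median 11.45) in HZ and from 11.07 to 11.66 (median 11.35) in KO. HZ mice given VPA all lay above HZ mice given saline, while the groups overlapped in WT and in KO mice. VPA against saline gave 0.28 (SE 0.05, adjusted p = 0.000167) by limma, with 22 of 24 mice above. Sec61b, a subunit of the translocon channel, had 3 probesets with differences between 0.13 and 0.18, none of them called.

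For Asns, whose values by mouse stand above, VPA against saline gave 0.95 (SE 0.29, adjusted p = 0.03) by limma, with 18 of 24 mice above, and the call was lost without WT SAL replicate 7, at 0.85 (adjusted p = 0.0509). By genotype the difference was 0.50 (WT), 1.09 (HZ) and 1.26 (KO), none of them called alone. Of its neighbours in the PERK arm none was called with VPA over the 3 genotypes. Atf4 was at 0.07 (SE 0.04, adjusted p = 0.256), Ddit3, which encodes CHOP, at -0.03 (SE 0.04, adjusted p = 0.702), and Chac1 at 0.19 (SE 0.09, adjusted p = 0.184) by limma. The group medians of Trib3 were 7.54 (WT), 7.48 (HZ) and 7.48 (KO) with saline, and 7.28, 7.45 and 7.57 in the same order with VPA, with single mice between 6.98 and 7.94. Trib3, a pseudokinase induced by ATF4 and CHOP, was at -0.03 (SE 0.05, adjusted p = 0.773).

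Herpud1 encodes a membrane protein that organizes the HRD1 complex of ER-associated degradation and is in other settings among the genes most induced by ER stress. In saline mice Herpud1 ran from 11.82 to 12.65 (median 12.26) in WT, from 12.02 to 12.62 (median 12.39) in HZ and from 12.18 to 12.93 (median 12.36) in KO. In VPA mice Herpud1 ran from 11.22 to 12.58 (median 11.58) in WT, from 11.43 to 12.15 (median 11.85) in HZ and from 11.63 to 12.56 (median 12.13) in KO. VPA mice lay low and saline mice high in all genotypes, with overlap, and a WT mouse given VPA stood at the level of the highest WT mice given saline. VPA against saline gave -0.46 (SE 0.08, adjusted p = 0.000179) by limma, with 22 of 24 VPA mice below the saline mean of their genotype. By genotype the difference was -0.52 (WT), -0.50 (HZ) and -0.37 (KO). The signs were opposite to those of Hspa5 in all 3 genotypes, for which the differences were 0.17, 0.34 and 0.16.

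**Figure D3:**
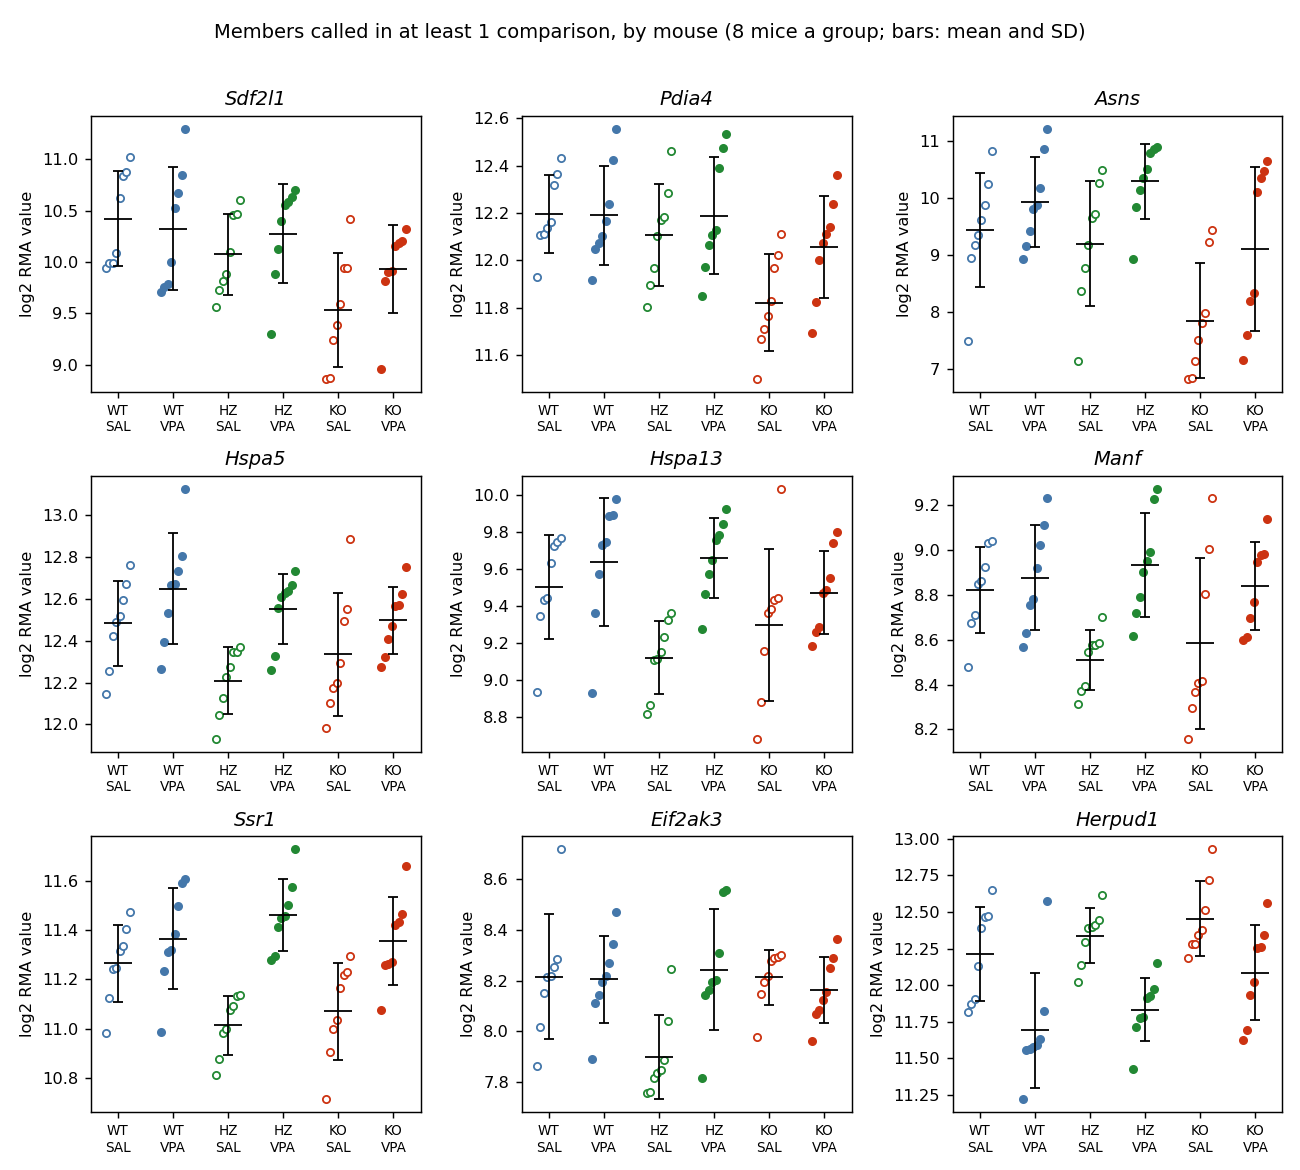
Log2 RMA values of the 9 members called in at least 1 comparison, by group, with 1 point for each mouse (open for saline, filled for VPA; WT blue, HZ green, KO red) and bars for the mean and SD of 8 mice. Sdf2l1, Pdia4 and Asns are low in KO mice given saline, Hspa5, Hspa13, Manf, Ssr1 and Eif2ak3 are low in HZ mice given saline, and Herpud1 is low with VPA.

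Taken by genotype, VPA passed the test for members in HZ mice alone, but the difference between genotypes did not pass. In HZ mice 5 of 35 rose and 1 fell (17.1%, where 10.5% of all probesets were called, 4.72% higher and 5.76% lower). An unadjusted p under 0.05 was found for 9 members there (beside 29.2%). In WT mice 0 were called (0.0703% of all probesets) with 1 at an unadjusted p under 0.05 (beside 5.55%), and in KO mice 0 were called (0.0112%) with 8 at an unadjusted p under 0.05 (beside 7.16%), by limma. The interaction of VPA and genotype called 0 members (0.0816% of all probesets), and 2 members had an unadjusted p under 0.05 (beside 7.89%), Eif2ak3 (adjusted p = 0.380) and Ssr1 (adjusted p = 0.512), by the moderated F test of limma. The calls in HZ mice were Ssr1 at 0.45 (SE 0.08, adjusted p = 0.000505), Hspa13 at 0.54 (SE 0.14, adjusted p = 0.0119), Eif2ak3 at 0.34 (SE 0.09, adjusted p = 0.0136), Manf at 0.43 (SE 0.12, adjusted p = 0.0171), Hspa5 at 0.34 (SE 0.11, adjusted p = 0.031) and Herpud1 at -0.50 (SE 0.14, adjusted p = 0.0191) by limma. Ssr1 was the named member whose HZ groups did not overlap. Its exact permutation test over all splits of the 16 mice (two-sided) gave p = 0.000155, the smallest it can give. After adjustment for 7 group pairs of that gene this was 0.00109. Groups of 8 mice without overlap always give the smallest p, so the test only restates the lack of overlap. Ssr1 was picked out of 35 members by this result, and the adjustment does not cover that choice. How many of all probesets had HZ groups without overlap was not counted. The call of Hspa5 was lost without HZ SAL replicates 1, 4 or 8 or HZ VPA replicates 1 or 4, with an adjusted p of up to 0.0752, and that of Manf without HZ VPA replicate 1 (adjusted p = 0.0506).

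Eif2ak3, the PERK sensor, was called with VPA in HZ mice and in no other comparison. In saline mice Eif2ak3 ran from 7.86 to 8.72 (median 8.22) in WT, from 7.76 to 8.25 (median 7.84) in HZ and from 7.98 to 8.30 (median 8.25) in KO. In VPA mice Eif2ak3 ran from 7.89 to 8.47 (median 8.21) in WT, from 7.82 to 8.56 (median 8.20) in HZ and from 7.96 to 8.36 (median 8.14) in KO. HZ mice given saline were low, and the other 5 groups lay at like levels. The same HZ mice given saline enter HZ against WT in saline and VPA against saline in HZ, so the low value of the one and the rise of the other are not separate measurements. The VPA difference was -0.01 (SE 0.09, adjusted p = 0.999) in WT and -0.05 (SE 0.09, adjusted p = 0.96) in KO mice by limma. The sensors Atf6 and Ern1 were at 0.02 and 0.12 with VPA in HZ mice, neither of them called.

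Markers of other liver cells moved with VPA in HZ mice beside these genes. In HZ mice 8 of 12 Kupffer cell markers rose with VPA and all 12 differences were above 0. There 7 of 9 markers of the sinusoidal endothelium and 4 of 10 stellate cell markers rose, where 4.72% of all probesets were called higher. The summed unlogged level of the endothelial markers ran from 5500 to 7561 in HZ mice given saline and from 7859 to 9686 in HZ mice given VPA, without overlap. In the other groups it had medians between 8535 and 9256. For the Kupffer cell markers the sums ran from 4244 to 8235 and from 7260 to 11454 in the same groups, and for the stellate cell markers from 6149 to 7735 and from 7085 to 8904. Thus HZ mice given saline, in which Hspa5, Hspa13, Manf, Ssr1 and Eif2ak3 were low, were also low in these markers. KO mice given saline had like medians of Hspa5 (12.25 in both groups) and Ssr1 (11.10 beside 11.04), and a lower one of Manf (8.41 beside 8.56). Their medians of Hspa13 (9.37 beside 9.13) and Eif2ak3 (8.25 beside 7.84) were higher. Their marker sums had higher medians, at 8535 beside 6720 (endothelial), 8179 beside 6549 (stellate) and 6869 beside 5520 (Kupffer). The part of these cells in the results was not tested. Plasma cells and pancreatic acinar cells also hold much ER. The summed levels of 9 plasma and B cell markers had group medians between 783 and 846, and those of 10 acinar markers between 1034 and 1140. The ranges of all groups overlapped. These sums were low beside those of the hepatocyte, Kupffer, endothelial and stellate markers. Whether they stood above background was not tested, so they cannot show whether these cells changed. In KO against WT mice none of the Kupffer, endothelial, stellate, plasma and B cell or neutrophil markers was called. Of the hepatocyte, T and NK cell, cholangiocyte and acinar markers 1 each fell, where 1.57% of all probesets were called lower.

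Core genes of the circadian clock, which set a daily rhythm of many liver genes, also moved with VPA. A clock index was taken for each mouse as the mean of 13 clock genes, each in units of its SD, with a plus sign for 9 genes such as Dbp and Per3 and a minus sign for 4 such as Arntl. Its group means with saline were 0.23 (WT), 1.11 (HZ) and 0.50 (KO), and with VPA they were -1.07, -0.89 and 0.11. In HZ mice the index ran from 0.76 to 1.46 with saline and from -1.22 to -0.44 with VPA, without overlap. The index and VPA thus cannot be told apart in HZ mice. In WT mice it ran from -0.65 to 0.74 with saline and from -1.62 to -0.63 with VPA, so they are hardly separable there either. In KO mice it ran from -0.21 to 0.96 and from -0.39 to 0.79 in the same order, with wide overlap. With the index as a covariate, 0 of 35 members were called with VPA, and 0 of all probesets. The differences were then 0.07 for Hspa5, 0.05 for Hspa13, 0.13 for Manf, 0.10 for Ssr1 and 1.60 for Asns. The sign of Herpud1 turned, to 0.13 (SE 0.13, adjusted p = 0.872 from limma), and in HZ mice to 0.46 (SE 0.22, adjusted p = 0.687). The standard error of the VPA difference grew with the covariate, from 0.06 to 0.12 for Hspa5. In KO against WT mice the covariate left Sdf2l1 at -0.63, Pdia4 at -0.24 and Asns at -1.59, with 0 members called and 307 probesets called in all, by limma. Of the members that came close to a call there, Calr was then at -0.13, Dnajb11 at -0.21 and Pdia3 at -0.16. Herpud1 went from 0.32 without the index to -0.03 with it.

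Herpud1 also followed the index among mice of a group. With group means removed, its Pearson r with the index was 0.63 and its Spearman rho 0.67 over 48 mice (permutation test with 100000 resamples, p = 1e-05 for both, the smallest these resamples can give, and adjusted p = 0.0142 for r over all probesets). It was 0.62 without the 2 mice farthest from the median of the index, 0.67 within saline mice and 0.60 within VPA mice. It was the 1 member of 35 to pass, above 0, where 0.146% of all probesets passed above 0 and 0.045% below 0. The resamples shuffled mice within each group and did not allow for likeness between mice of the same replicate number.

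**Figure D4:**
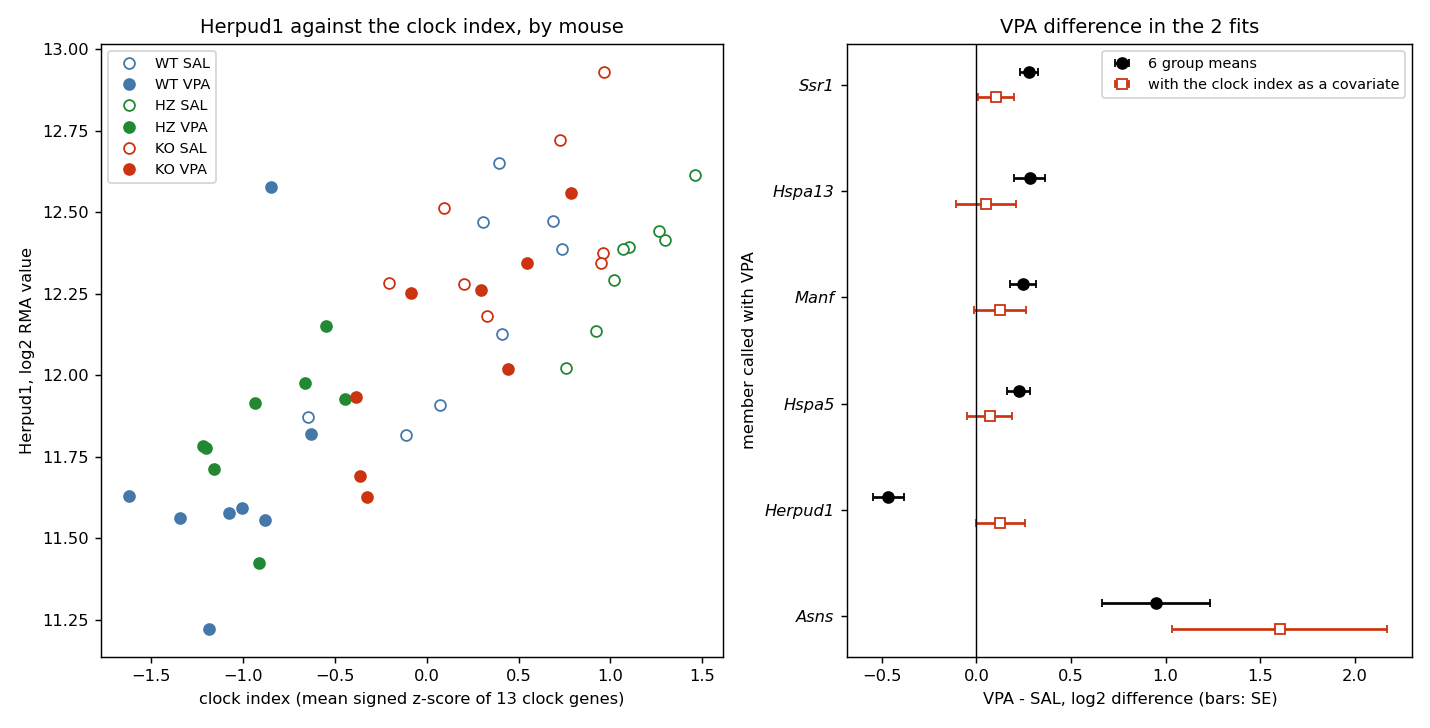
Left, Herpud1 (log2 RMA value) against the clock index (mean of 13 clock genes in SD units) with 1 point for each of 48 mice. Right, VPA against saline differences (log2, bars SE) of the 6 members called with VPA, from the 6 group means (black) and with the clock index as a covariate (red). Herpud1 is higher in mice with a higher index, KO mice given VPA lie among the saline mice on the index, and the difference of Herpud1 changes sign between the fits.

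Among mice of a group many members varied together with Hspa5. With group means removed, 15 of 34 members (44.1%) correlated with it above 0 and 0 below 0 past an adjusted p of 0.05 over all probesets (permutation tests over 48 mice), where 0.939% of all probesets passed above 0 and 0.113% below 0. At an unadjusted p under 0.05, 18 members were above 0 and 1 was below 0, beside 7.14% and 4.53% of all probesets. The median r was 0.30 over the members and -0.01 over all probesets. The closest were Creld2 (r = 0.84, rho = 0.80), Manf (0.80 and 0.78), Sel1l (0.76 and 0.74), Hspa13 (0.74 and 0.70), Hyou1 (0.72 and 0.66) and Dnajb11 (0.68 and 0.66), each with a permutation p = 1e-05 for r and rho, the smallest the resamples can give, and an adjusted p = 0.00508 for r over all probesets. Sel1l is the adaptor of the HRD1 ubiquitin ligase. Sdf2l1 (r = 0.59), Pdia4 (0.57), Eif2ak3 (0.58), Atf6 (0.56) and Ssr1 (0.61) passed as well, as did Edem1, Dnajb9, Pdia3 and Dnajc3. Without the 2 mice farthest from the median of Hspa5, WT VPA replicate 4 and KO SAL replicate 3, r was 0.77 for Creld2 and 0.74 for Manf. It was 0.85 and 0.84 for Creld2 within saline and within VPA mice. Here too the resamples did not allow for likeness between mice of the same replicate number.

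None of the 4 outputs of ATF4 and CHOP passed. Their r with Hspa5 was -0.43 for Trib3 (permutation test, p = 0.0117, adjusted p = 0.246 over all probesets), -0.27 for Chac1, -0.07 for Asns and -0.16 for Ppp1r15a, which encodes a phosphatase subunit acting on eIF2. The r of Trib3 was -0.28 without the same 2 mice. Members of other roles also had values near 0 or below, with Sec61b at -0.20, Herpud1 at -0.18, Ern1 at -0.08, Atf4 at -0.06, P4hb at -0.01, Dnajc10 at 0.08 and Ddit3 at 0.10, none of them passing, and Xbp1 at 0.23 did not pass either. The chaperones Hsp90b1 (0.27), Calr (0.30) and Canx (0.28) did not pass, nor did Pdia6 (0.30), Derl1 (0.23), Derl2 (0.43) and Derl3 (0.25). A difference between roles was not tested. KO SAL replicate 3 was the highest of its group for 13 of the 35 members, among them Hspa5, Creld2, Manf and Hspa13, and the lowest for Trib3 and Chac1. WT VPA replicate 4 was the highest of its group for 16 members and the lowest for none. Both mice were chosen for their distance from the median of Hspa5, so high values of members that correlate with it follow in part from that choice. How often these 2 arrays were the highest or lowest over all probesets was not counted.

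**Figure D5:**
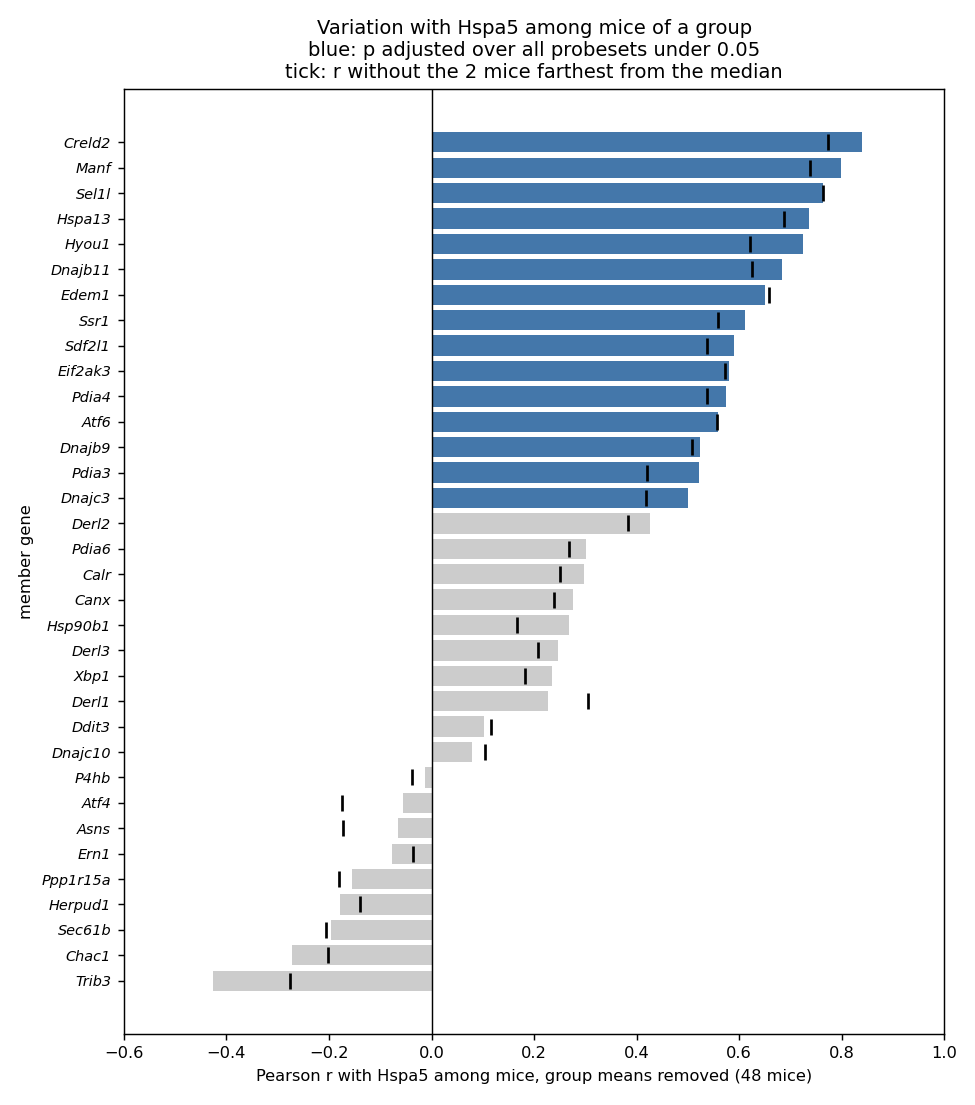
Pearson r of 34 members with Hspa5 over 48 mice after removal of the 6 group means, as bars (blue where the permutation p, adjusted over all probesets, was under 0.05), with a tick for r without the 2 mice farthest from the median of Hspa5. Creld2 and Manf stand at the top at 0.84 and 0.80, and Trib3 at the bottom at -0.43.

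Of the members not yet given values, the J-domain co-chaperones Dnajb9 and Dnajc10 were not called. The group medians of Dnajb9 were 10.79 (WT), 10.77 (HZ) and 10.79 (KO) with saline, and 10.86, 10.76 and 10.47 in the same order with VPA, with single mice between 10.12 and 11.64. VPA against saline was at -0.14 (SE 0.10, adjusted p = 0.344) by limma for this co-chaperone, also called ERdj4. The group medians of Dnajc10 were 8.46 (WT), 8.41 (HZ) and 8.49 (KO) with saline, and 8.61, 8.70 and 8.58 in the same order with VPA, with single mice between 7.85 and 9.14. Dnajc10 encodes the disulfide reductase ERdj5, and it was at 0.19 (SE 0.09, adjusted p = 0.154). The abundant lumenal chaperone Hsp90b1 (GRP94) differed by -0.10 in KO against WT mice and by 0.04 with VPA. The lectin chaperone Canx differed by -0.07 and 0.02, and the kinase inhibitor Dnajc3, whose 2 probesets hold identical values, by -0.14 and 0.02. Of the isomerases, Pdia6 differed by -0.28 and 0.09 and P4hb by 0.07 and 0.10. Of the genes of degradation, Edem1, Sel1l, Derl1 and Derl2 had differences between -0.12 and 0.01 in KO mice and between 0.03 and 0.11 with VPA. Atf6, Ern1 and Xbp1 were at 0.06, -0.19 and -0.08 in KO mice. None of these was called in a comparison.

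Other genes of the same pathways, 119 listed by role and 114 of them measured, were compared in the same fit. In KO against WT mice 2 rose and 3 fell (4.39%, beside 2.94% of all probesets), with a median difference of -0.03. Those that fell were Ero1b (-0.37, adjusted p = 0.0365 from limma), an oxidase that drives disulfide formation, and Faf2 (-0.19) and Ube2j1 (-0.17) of ER-associated degradation. Vldlr, a lipoprotein receptor that ATF4 can induce, was higher by 1.08 (SE 0.19, limma's adjusted p = 0.000274), while Eif2ak4, the eIF2 kinase that senses amino acid shortage, rose by 0.21. HZ against WT mice gave 0 calls by limma (0.00281% of all probesets), with 6 at an unadjusted p under 0.05 (beside 5.4% of all probesets). The interaction gave 0 calls (0.0816% of all probesets), with 9 at an unadjusted p under 0.05 (beside 7.89%).

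With VPA 17 of these 114 genes rose and 3 fell (17.5%, beside 8.61% of all probesets), with a median of 0.07. Among the other genes of the translocon, signal peptidase and glycosylation 7 of 26 rose and 0 fell, with 23 of 26 differences above 0. Examples were Ostc (0.37, adjusted p = 4.1e-05 from limma) and Ddost (0.22) of the oligosaccharyltransferase, Spcs2 (0.36) of the signal peptidase, and Ssr4 (0.20), which is a partner of Ssr1. Among 25 other folding enzymes 3 rose, Fkbp14 (0.28), Txndc12 (0.21) and Uggt1 (0.19), and 0 fell. Of 21 other genes of degradation 3 rose and 1 fell, and of 14 other sensors and regulators Atf6b rose by 0.15. Of 28 other targets of ATF4 and eIF2 kinases 3 rose and 2 fell. Mthfd2, a mitochondrial folate enzyme, rose by 0.39 (SE 0.10, adjusted p = 0.00824 from limma), while Phgdh, which starts serine synthesis, fell by 0.30 and Pck2 fell by 0.14.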

How the data were processed

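Livers of 48 mice were measured with 1 Affymetrix array each, of the type Mouse Gene 1.0 ST. Per the study's methods and the labels, the authors processed the arrays in Affymetrix Expression Console (version 1.1.2800.28061) with RMA, which corrects background, normalizes by quantiles and summarizes probes, and deposited log2 values for 35556 probesets. Quantile normalization sets all arrays to like distributions (array medians 6.90 to 7.03), so a change shared by most genes would not be seen. Of the probesets 21789 named 1 gene symbol, 1621 several and 12146 none in the platform annotation, and a member was represented by its single-symbol probeset with the highest mean. Groups were taken from the labels of the samples, and mice of the same replicate number were not treated as pairs.

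A linear model with 1 mean for each of the 6 groups was fitted to all probesets with limma 3.58.1 in R 4.3.3 (lmFit and eBayes, leaving 42 residual degrees of freedom). P-values were adjusted over all probesets by Benjamini-Hochberg. KO and HZ against WT were averaged over treatments and VPA over genotypes, after the genotype by treatment design that the study's methods describe. Exact permutation tests and correlations with group means removed were computed in Python 3.11.15 with numpy 2.4.6 and scipy 1.17.1, and figures were drawn with matplotlib 3.10.9. The fit was tested on simulated data. The number of arrays limits the precision. Values in every group are given for members called in any comparison and for those with the 3 largest rises or falls in KO against WT, HZ against WT and VPA against saline or the 3 smallest interaction p-values, and other pathway genes were named by size among those called. Further pathway genes with values are examples chosen after their values were seen. The members, the gene lists and the clock index were chosen with earlier results of these data known. Alternatives were array weights, trended and robust moderation, none at all, median centring, a filter on dim probesets, 1 probeset per gene, a replicate block, fits of only the groups compared, the clock index as a covariate, a stricter threshold, and leaving out each array. The adjustment of the correlations over all probesets was added after the data were seen. Promoter windows came from RefSeq (GRCm38.p6), and the array values were matched to them by gene symbol.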

Additional observations from a re-analysis of the deposited data

Results flagged for a closer look

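The values of the 15 members described in every group were searched for a mouse far from the other 7 of its group, by a gap to its nearest neighbour of more than 0.526 of the range of the group. Of 90 groups examined 5 held such a mouse, where chance alone gives about 5% of groups. Dnajc10 had its lowest HZ SAL mouse at 7.94, with the next at 8.29. Sdf2l1 had its lowest KO VPA mouse at 8.96, with the next at 9.81. For Herpud1 the highest WT VPA mouse, replicate 8, was at 12.58, with the next at 11.82. Eif2ak3 had its lowest KO SAL mouse at 7.98, with the next at 8.15. Trib3 had its highest KO VPA mouse at 7.94, with the next at 7.64. Without WT VPA replicate 8, Herpud1 passed the test for VPA against saline in WT mice, where it was not called with all mice, and 1 of 35 members was then called there.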

How the results depend on the processing

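Of the 15 calls of single members (3 in KO against WT, 6 with VPA and 6 with VPA in HZ mice), 15 were kept with array weights, with trended and robust moderation, with a group mean of at least 5 and with 1 probeset per gene. Median centring lost Pdia4 in KO against WT, a model without moderation lost Pdia4 and Asns there, and fits of only the groups compared lost Asns there. The count of members called in KO against WT was 5 with array weights, 5 with a group mean of at least 5, 7 with 1 probeset per gene, and 0 at an adjusted p under 0.01. For KO against WT in saline it was 1 with a group mean of at least 5 (Sdf2l1) and 2 with 1 probeset per gene (Sdf2l1 and Pdia4). At an adjusted p under 0.01 it was 2 with VPA and 1 with VPA in HZ mice. With the clock index as a covariate all 3 counts were 0, and Herpud1 changed sign, to 0.13 with VPA and 0.46 with VPA in HZ mice, without a call. The cause was not tested. Arrays of the same replicate number correlated by 0.0546 on average after removal of group means, beside -0.0078 for other numbers, 53 of 120 such pairs correlated over 0.1, and 11 of 48 arrays were closest to one of their own number. As not every pair passed 0.1 and nothing in the labels says what a number marks, they were not treated as pairs. How often pairs of other numbers passed 0.1 was not counted. Mice of the same number may not be fully independent, and only the replicate block allowed for this. The replicate block gave 3 members called in KO against WT and 6 with VPA. The block lost Pdia4 (adjusted p = 0.0535 from limma) and Asns (adjusted p = 0.0557) and gained Dnajb11 (-0.32) and Herpud1 (0.32). With 1 array left out, the count ranged from 1 to 6 in KO against WT, from 5 to 7 with VPA, from 4 to 8 with VPA in HZ mice, from 0 to 2 for KO against WT in saline (1 without HZ VPA replicate 2, KO SAL replicate 6, KO VPA replicate 4, WT SAL replicate 3 or WT VPA replicate 4, 2 without KO SAL replicate 7 or WT SAL replicate 1) and from 0 to 1 for VPA in WT mice (1 without WT VPA replicate 8). It was 1 to 2 for members that varied with the clock index (2 without WT SAL replicate 1) and 16 to 19 for those that varied with Hspa5, with p-values adjusted over the members as first planned, which gave 17 with all arrays and 15 when adjusted over all probesets. In KO against WT it was 6 without KO VPA replicate 1, 5 without WT SAL replicate 1 or WT VPA replicates 7 or 8, and 1 without KO SAL replicates 2, 4 or 5, KO VPA replicates 2, 4 or 5, WT SAL replicates 2, 4, 5 or 6, or WT VPA replicates 1, 4 or 5. Without 1 array Sdf2l1 kept its call throughout. Pdia4 lost it without KO SAL replicates 1, 2, 4, 5 or 8, KO VPA replicates 2, 4, 5, 7 or 8, WT SAL replicates 2, 4, 5, 6 or 8, or WT VPA replicates 1, 2, 4 or 5 (adjusted p of up to 0.092). Asns lost it without KO SAL replicates 2 to 7, KO VPA replicates 2 to 5, WT SAL replicates 2, 3, 4, 5, 6 or 8, or WT VPA replicates 1, 3, 4, 5 or 8 (adjusted p of up to 0.0914).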
